A study of Homo sapiens with 9 samples.

Results

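Small nucleolar RNAs (snoRNAs) and small Cajal body RNAs (scaRNAs) were examined in H2030, a cell line from a non-small cell lung cancer, after siRNA against ENAH. ENAH encodes hMENA, a regulator of actin, and an alternative exon called 11a is held by the isoform hMENA11a. The entries were the rows of the deposited table of TPM, a per-length measure scaled to a fixed total per library, whose symbol starts with SNORA, SNORD or SCARNA. The members described here are the 114 of these 408 entries, in a table of 29972 genes, selected on a mean over the 9 libraries of at least 1 TPM, so their level is a description and no finding. They comprised 82 of 107 SNORA, 11 of 277 SNORD and 21 of 24 SCARNA entries. Just inside the threshold lay SNORA79 at a mean of 1.17 TPM and SNORA62 at 1.47 TPM. Just outside it lay SNORD3D at 0.522 TPM and SNORA58 at 0.827 TPM.

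There were 3 groups of 3 libraries. In siMENA11a, cells received a custom mix of siRNAs matching exon 11a. In siMENA, they received a commercial pool against ENAH of all isoforms, and in control a non-targeting pool. All groups were transfected at 20 nmol/L with the same lipid reagent, and no engineered allele is named. The siMENA and control pools belong to different reagent lines. Whether libraries of 1 group were grown as separate cultures is not stated, and p-values here cover only library-to-library spread, which may be technical. ENAH had 46.7, 47.5 and 48.7 scaled TPM in siMENA11a, 6.89, 7.3 and 7.48 in siMENA, and 43.6, 43.2 and 44.7 in control. It fell in siMENA by 2.52 ± 0.038 on the log2 scale (SE; adjusted p = 4.98e-10), and gene-level values do not resolve the exon 11a isoform in siMENA11a. Of 6 epithelial tumour markers, 4 averaged at least 1 TPM, with a sum of 315 to 329 scaled TPM in siMENA11a, 312 to 331 in siMENA and 356 to 368 in control. Of 6 lung lineage markers 0 did, and 3 of them were listed at 0 in every library. Of 4 fibroblast markers 1 did, and their sum was 6.29 to 6.59 in siMENA11a, 13.9 to 15.7 in siMENA and 7.4 to 8.36 in control. Of 5 leukocyte markers 1 did and 2 were listed at 0 in every library, with a sum of 1.6 to 2.24 in siMENA11a, 0.786 to 0.923 in siMENA and 1.26 to 1.3 in control. Of 4 endothelial markers 0 did, with a sum of 0.55 to 0.587 in siMENA11a, 0.973 to 1.18 in siMENA and 0.513 to 0.672 in control. The part of these sums in any result below was not tested. In bulk RNA, fewer cells that carry an RNA and less of that RNA per cell cannot be told apart.

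SnoRNAs are stable non-coding RNAs that work in the nucleolus as ribonucleoprotein particles, most of them cut out of introns of host genes. Box C/D RNAs (SNORD) guide 2'-O-methylation and box H/ACA RNAs (SNORA) guide pseudouridylation, mostly of ribosomal RNA (rRNA), while a few of either kind are needed to cleave the rRNA precursor. ScaRNAs (SCARNA) carry a box of either kind, or both, and guide the same modifications on spliceosomal small nuclear RNAs in Cajal bodies.

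The sequences behind the results are given from GENCODE 29 on GRCh38, with T for U. The first 3 are H/ACA RNAs listed at 0 in every control library and above 0 in at least 5 of the 6 knockdown libraries. SNORA73A is an H/ACA RNA that rose in siMENA11a. Capitals mark a box H word (ANANNA, nearest to the middle) and the ACA near the 3' end. SNORA61 lies at chr1:28579764-28579893 (minus strand) in SNHG12, SNORA10 at chr16:1962334-1962466 (minus) in RPS2, SNORA33 at chr6:132817219-132817348 (plus) in RPS12 and SNORA73A at chr1:28507366-28507571 (plus) in SNHG3.
SNORA61: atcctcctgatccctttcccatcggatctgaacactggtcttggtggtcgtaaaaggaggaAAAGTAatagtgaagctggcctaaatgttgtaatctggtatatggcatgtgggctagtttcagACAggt
SNORA10: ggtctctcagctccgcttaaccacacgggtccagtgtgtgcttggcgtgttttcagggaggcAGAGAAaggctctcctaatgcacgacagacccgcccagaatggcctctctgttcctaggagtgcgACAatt
SNORA33: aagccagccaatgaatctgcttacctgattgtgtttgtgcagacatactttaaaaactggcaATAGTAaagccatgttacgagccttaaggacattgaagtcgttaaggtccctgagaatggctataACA
SNORA73A: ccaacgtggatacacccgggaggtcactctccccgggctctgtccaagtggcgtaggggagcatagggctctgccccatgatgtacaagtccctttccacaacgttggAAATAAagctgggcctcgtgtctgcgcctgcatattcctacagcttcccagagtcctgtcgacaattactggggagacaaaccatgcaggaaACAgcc

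SNORD3A, SNORD3B-2 and SNORD3C are copies of the U3 RNA, which is needed for early cleavage of the rRNA precursor. Each has 217 bases. Of the other U3 entries, SNORD3B-1, also of 217 bases, was listed at 0 in every library. SNORD3D, of 218 bases, was above 0 only in siMENA library 2, at 4.7 TPM. SNORD3A lies at chr17:19188016-19188232 (plus), SNORD3B-2 at chr17:19063920-19064136 (minus) and SNORD3C at chr17:19190029-19190245 (minus). Counted from 1 at the 5' end, with the base of SNORD3A first, SNORD3B-2 differs from SNORD3A by A78C and SNORD3C differs from it by G108A, each shown as a capital. Reads that miss these single bases cannot tell the copies apart, so the share given to each is uncertain.
SNORD3A: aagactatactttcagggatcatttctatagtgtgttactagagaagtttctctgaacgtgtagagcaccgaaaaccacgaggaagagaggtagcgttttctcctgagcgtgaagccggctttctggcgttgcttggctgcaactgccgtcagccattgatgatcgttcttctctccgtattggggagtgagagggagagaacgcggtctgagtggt
SNORD3B-2: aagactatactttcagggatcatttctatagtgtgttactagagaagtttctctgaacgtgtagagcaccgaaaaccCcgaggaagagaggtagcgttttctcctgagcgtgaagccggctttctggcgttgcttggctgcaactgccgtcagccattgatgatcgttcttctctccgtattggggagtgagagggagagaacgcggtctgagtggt
SNORD3C: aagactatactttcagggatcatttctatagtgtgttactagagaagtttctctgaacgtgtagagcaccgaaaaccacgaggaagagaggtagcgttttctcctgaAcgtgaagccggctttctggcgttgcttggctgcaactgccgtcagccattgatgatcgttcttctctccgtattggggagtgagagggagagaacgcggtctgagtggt

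Of the 82 SNORA members, 74 (90.2%) held both a box H word in the central stretch and ACA in the last 8 bases. These words were found together in 3.9% of 35116 windows of about that length taken from RefSeq promoter sequences (GRCh38.p14) and read, like the RNAs, on 1 strand. Box D (CTGA) in the last 15 bases was found in 10 of 11 SNORD members, against 5.42% of windows. Box C (TGATGA) in the first 20 bases was found in 4 of 11 SNORD members, against 0.353% of windows. Of the 20 SCARNA members with a sequence, 12 held the H and ACA words and 8 held box D. A match is a description of the letters and not of a working box.

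Among the SNORD entries, the short RNAs were listed at 0. GENCODE 29 gave a length for 387 of the 408 entries and 113 of the 114 members. All 245 entries of at most 120 bases were listed at 0 in every library, and all of them were SNORD entries. From 121 to 140 bases, 81 of 107 entries were members, and above 140 bases 32 of 35 were. Listed at 0 in every library were also 25 entries of 121 to 140 bases and 2 longer ones. SNORA members had a median of 134 bases, close to the 132 bases of the SNORA entries below the threshold. The SNORD class was therefore represented by its few long RNAs, with a median of 146 bases in the 11 members against 81 bases in the SNORD entries below the threshold. Among the entries at 0 everywhere were the box C/D RNAs SNORD14A to SNORD14E, copies of U14 for small-subunit rRNA, of 85 to 91 bases, and SNORD13 of 104 bases. An entry listed at 0 here is not shown to be absent from the cells.

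**Figure D1:**
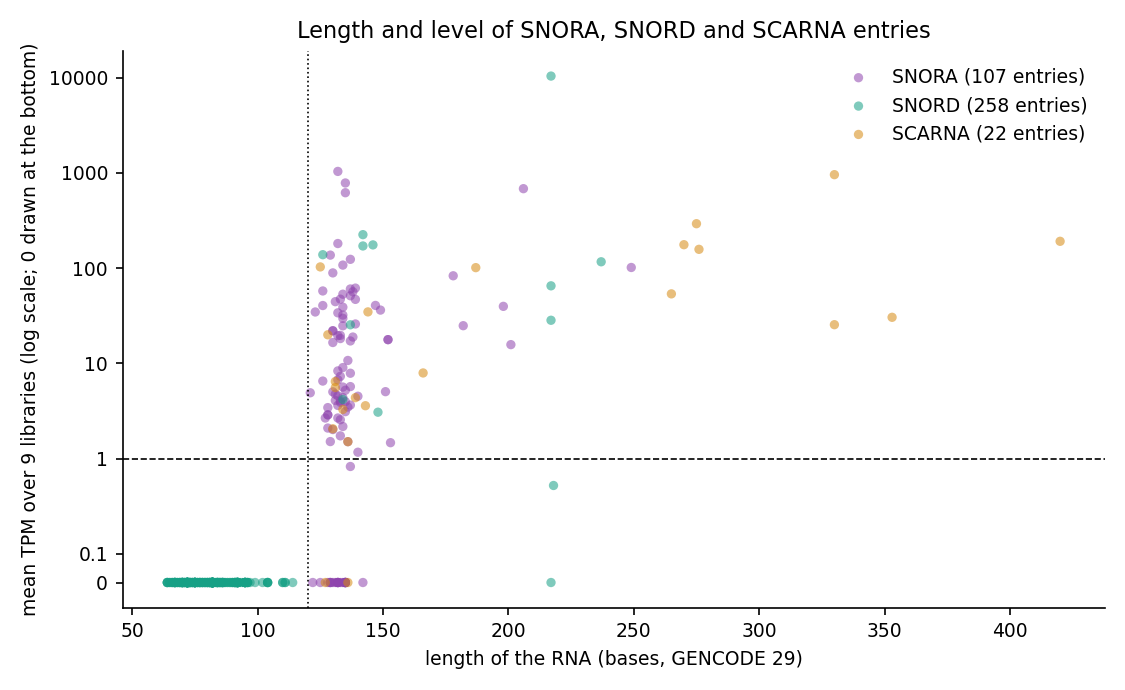
Mean TPM over 9 libraries (log axis, 0 drawn at the bottom) against length in bases for the 387 entries with a length, coloured by class. The dashed line is the membership threshold of 1 TPM and the dotted line is 120 bases, to the left of which all 245 entries are at 0.

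A single RNA dominated the level. SNORD3A averaged 55.4% of the summed level of the members, and the 5 highest members together held 73.9% of it. TPM is per length, and levels are compared between RNAs on that scale only. A higher TPM need not be more signal: SNORA79, above 0 in 1 library, averaged 1.17 TPM. SNORA58, above 0 in 6 libraries, averaged 0.827 TPM. The order given here is thus an order of TPM and is not shown to be one of abundance. After division by a size factor per library (scaled TPM), SNORD3A had 12093, 8864 and 7961 in siMENA11a, 11366, 8393 and 8989 in siMENA, and 15366, 9539 and 11166 in control. Library 1 was the highest of each group and the groups overlapped. After it came, in this order, SNORA63, an H/ACA RNA in EIF4A2, SCARNA10, a scaRNA with boxes of both kinds that guides modification of U5, SNORA70, an H/ACA RNA in RPL10, SNORA73A, needed for processing of the rRNA precursor, and SNORA48, an H/ACA RNA in EIF4A1. Their means lay between 622 and 1050 scaled TPM. Of the members, 22 averaged at least 100 scaled TPM, 43 between 10 and 100, and 49 under 10.

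**Figure D2:**
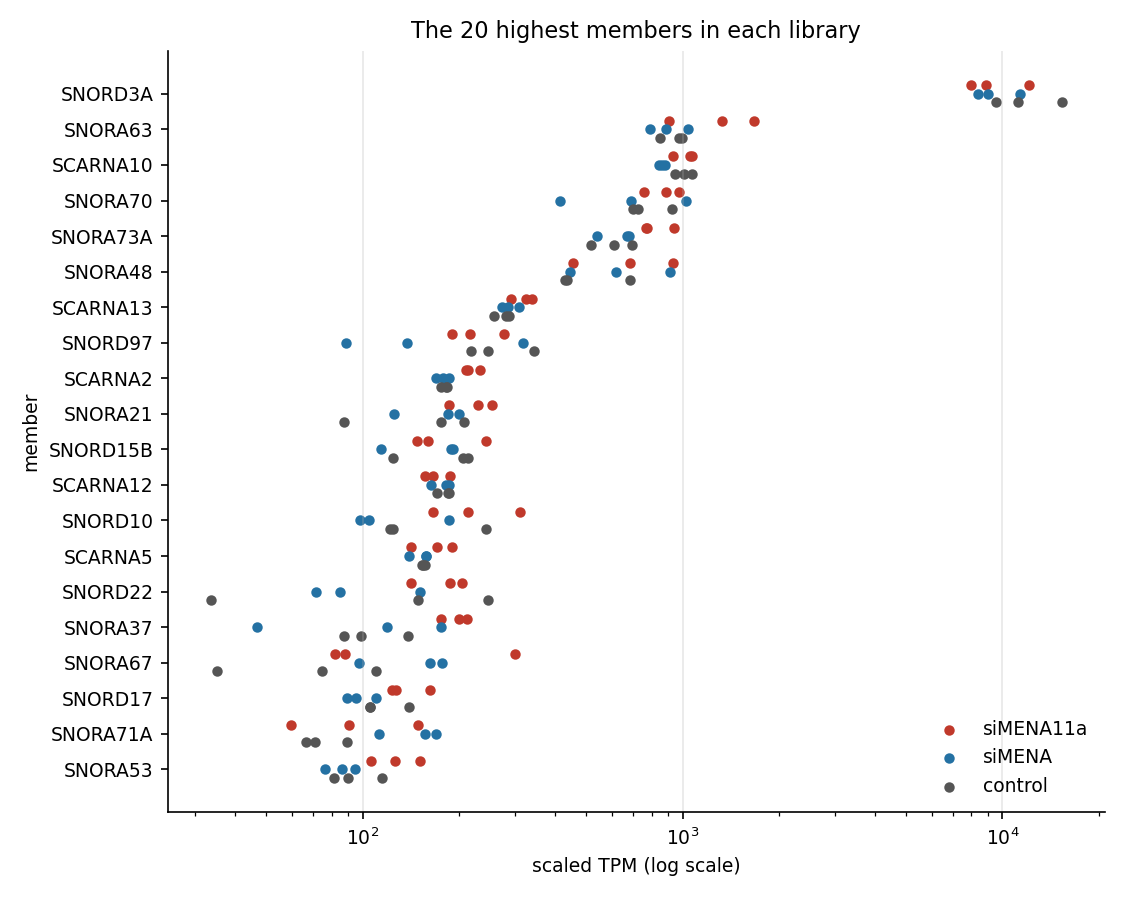
Scaled TPM (log axis) of the 20 highest members, 1 point per library, with siMENA11a, siMENA and control drawn from top to bottom within each row. SNORD3A stands apart and the groups of most other members overlap.

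The summed level of the SNORA members was 6129 ± 1093 scaled TPM in siMENA11a, 4943 ± 906 in siMENA and 4647 ± 300 in control (SD, n = 3 each). That of the SNORD members was 10694 ± 2250 in siMENA11a, 10412 ± 1819 in siMENA and 13019 ± 3229 in control. That of the SCARNA members was 2311 ± 196 in siMENA11a, 2053 ± 149 in siMENA and 2230 ± 155 in control. These sums are descriptions without a test. Members took 1.59% to 2.35% of the TPM of a library.

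Most members rested on very few units of signal. Of the 114, 42 were above 0 in all 9 libraries, 72 were listed at 0 in at least 1, and 17 were above 0 in only 1. Members of near-equal length shared identical values, in 14 classes that hold 54 members. In these classes 191 of 194 values (98.5%) were whole multiples of a step fitted to each class in each library. The tolerance was 0.02 of a step, and more for high multiples. The lowest value of a class, any value equal to it, and twin entries such as SNORA59A and SNORA59B pass by construction. The share is therefore a description and no test. In the largest class, of 8 members with 136 to 138 bases, the step was 12.6, 12.4 and 12.2 TPM in siMENA11a, 17.1, 13.6 and 16.1 in siMENA, and 15.6, 18.2 and 18.6 in control. The lowest value above 0 in this class was 1 or 2 steps in every library. The step was lower in all 3 siMENA11a libraries than in any other. Its part in the listings at 0, and in the rises in siMENA11a below, was not tested. The members above 0 numbered 79, 72 and 67 in the siMENA11a libraries, 67, 73 and 61 in the siMENA libraries, and 71, 64 and 66 in the control libraries. Length went with this too: 14 of 81 members of at most 140 bases were above 0 everywhere, against 27 of 32 longer ones.

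All 114 members were tested with limma in 1 fit of the 13498 genes that passed a filter on low values. The F test called 23 of 114 members as differing among the 3 groups, beside 73.2% of all genes. Of the 23, 6 had a group listed at 0 in all its libraries. Without siMENA11a library 1, and likewise without siMENA11a library 2, it called 14. The median standard error of a log2 fold change was 1.21 for members and 0.067 for all genes, so a member had to change far more than a typical gene to be called. A group listed at 0 in all 3 libraries has no spread of its own, and such a member reached the threshold through the other groups alone. Calls between such a group and another are therefore counted here but given without a p or a fold, as levels. Such members also passed the threshold of 1 TPM only through the groups where they have signal. These were control for SCARNA20, siMENA11a for SNORA50, siMENA for SNORA80, and the knockdowns for SNORA10, SNORA33 and SNORA61.

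Between siMENA11a and control, the question was whether the mix against exon 11a moved these RNAs. In siMENA11a 5 members rose and 2 fell among those with no group listed at 0. The H/ACA RNA SNORA74A rose most, and the U3 copy SNORD3B-2 fell most. In all, the fit called 12 members, 9 higher and 3 lower, of which 5 rest on a group listed at 0. These 12 are 10.5%, beside 55.6% of all genes called in this comparison (27.9% higher and 27.7% lower). Of the members, 12 had no overlap between siMENA11a and control libraries, beside 62.9% of genes. The median log2 fold change was 0.18 over all members and 0.01 over all genes. In TPM as deposited, where the median of all genes is shifted by -0.11, 6 members were called higher and 6 lower.

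SNORA61 had 41.8, 40 and 36.9 scaled TPM in siMENA11a, 23.7, 37.3 and 22 in siMENA, and was listed at 0 in all 3 control libraries. In steps, these are 2, 2 and 2 in siMENA11a and 1, 2 and 1 in siMENA. SNORA10 had 88.1, 101 and 77.7 scaled TPM in siMENA11a, 40, 110 and 18.5 in siMENA, and was listed at 0 in all 3 control libraries. Its values were 5, 6 and 5 steps in siMENA11a and 2, 7 and 1 in siMENA. SNORA33 had 52.8, 50.6 and 15.5 scaled TPM in siMENA11a, 20, 0 and 18.5 in siMENA, and was listed at 0 in all 3 control libraries. Each of these 3 RNAs had signal in 5 or 6 libraries, all of them knockdown libraries, and no test against control is given for them.

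**Figure D3:**
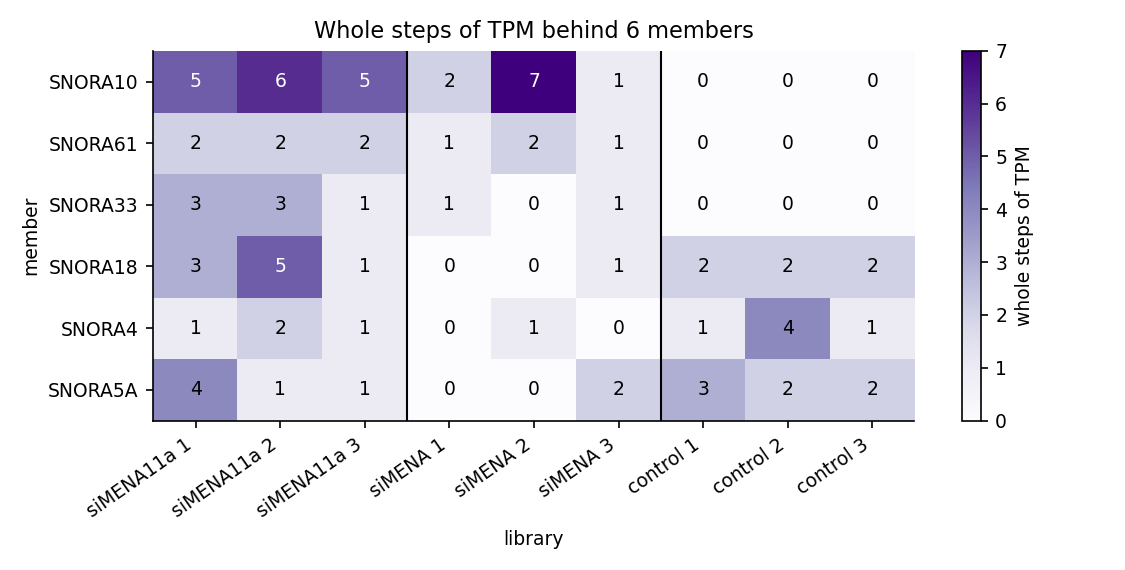
Whole steps of TPM for 6 H/ACA members (rows) in each library (columns, with lines between siMENA11a, siMENA and control). SNORA10, SNORA61 and SNORA33 are at 0 in every control library, and SNORA18 and SNORA5A are at 0 in siMENA libraries 1 and 2.

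Among the rises in siMENA11a against control, SNORA74A, an H/ACA RNA in SNHG4, had 68.3, 43.6 and 48.4 scaled TPM in siMENA11a against 30.1, 28.5 and 33.9 in control, with no overlap. It rose by 0.76 ± 0.19 on the log2 scale (SE; adjusted p = 0.00774). SNORA73A had 941, 775 and 768 scaled TPM in siMENA11a against 610, 519 and 693 in control, with no overlap. It rose by 0.45 ± 0.13 (adjusted p = 0.0127). SCARNA2, which guides modification of U2, had 210, 232 and 213 scaled TPM in siMENA11a against 184, 182 and 176 in control, with no overlap. It rose by 0.27 ± 0.05 (adjusted p = 0.000889), and by 0.14 in TPM as deposited (adjusted p = 0.0591), in a range of 0.000434 to 0.0591 over all its alternatives. These 3 kept their call whichever library was left out.

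SCARNA13, a scaRNA in SNHG10, rose by 0.21 ± 0.067 (adjusted p = 0.0247), and the call was lost without siMENA11a library 1 (0.0658), siMENA11a library 2 (0.0908) or control library 2 (0.0928), and in TPM as deposited (0.253). SNORA53, an H/ACA RNA in SLC25A3, rose by 0.42 ± 0.15 (adjusted p = 0.0375) with overlapping libraries. Its call was lost without siMENA11a library 1 (0.129) or 2 (0.0792), siMENA library 2 (0.051), or control library 1 (0.1) or 2 (0.131), and in TPM as deposited (0.0712). SNORA50 had 15, 28.7 and 0 scaled TPM in siMENA11a and was listed at 0 in all siMENA and control libraries, which is signal in 2 of 9 libraries.

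The fall of SNORD3B-2 is given with its family. SCARNA22, a scaRNA in an intron of WHSC1, had 56.9, 81.8 and 75.5 scaled TPM in siMENA11a against 223, 107 and 112 in control. In steps, these are 2, 3 and 3 in siMENA11a and 7, 3 and 3 in control, so libraries 2 and 3 held equal steps in both groups. SCARNA22 fell by 0.97 ± 0.32 on the log2 scale (adjusted p = 0.0275). The call was lost without siMENA11a library 1 (0.0903), siMENA11a library 3 (0.0536) or control library 1 (0.0877, with a log2 fold change of -0.63). SCARNA20 was listed at 0 in all 3 siMENA11a and all 3 siMENA libraries, and had 23.2, 26 and 0 scaled TPM in control, again signal in 2 of 9 libraries. SCARNA22 and SNORA53 also lost their call without the filter on low values (0.0557 and 0.0714) and with robust eBayes (0.0807 and 0.0816).

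Between siMENA and control, where ENAH itself fell, 5 members rose and 5 fell among those with no group listed at 0. They comprised falls of 3 short H/ACA RNAs and 2 scaRNAs, and rises of SNORA71A, SCARNA17, SNORD3B-2 and the twin entries SNORA59A and SNORA59B. In all, the fit called 15 members, 9 higher and 6 lower, of which 5 rest on a group listed at 0. SNORA59A and SNORA59B are 1 measurement entered under both names, so the 15 are 14 distinct measurements. The 15 called members are 13.2%, beside 49.4% of all genes called (23.7% higher and 25.8% lower). The libraries did not overlap for 9 members, beside 57.6% of genes. The median log2 fold change was -0.01 over all members and 0.01 over all genes. The count of called members was 9 without siMENA library 1 and 7 without control library 1.

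SNORA18, an H/ACA RNA in TAF1D, had 0, 0 and 19.6 scaled TPM in siMENA against 41.3, 46.2 and 48.8 in control, which are 0, 0 and 1 steps against 2, 2 and 2. It was 4.74 ± 1.25 lower on the log2 scale (log2 fold change -4.74, adjusted p = 0.0112). SNORA4, an H/ACA RNA in EIF4A2, had 0, 12.6 and 0 scaled TPM in siMENA against 15.7, 70 and 18.6 in control, which are 0, 1 and 0 steps against 1, 4 and 1 (log2 fold change -4.23 ± 1.14, adjusted p = 0.0122). Both kept their call whichever library was left out. Without the 1 siMENA library that has signal, siMENA is wholly at 0 for them, and keeping the call there shows nothing. SNORA5A, an H/ACA RNA in TBRG4, had 0, 0 and 34.9 scaled TPM in siMENA against 55.3, 41.2 and 43.7 in control (log2 fold change -4.50 ± 1.42, adjusted p = 0.025). Its call was lost without siMENA library 1 (0.0903) or 2 (0.088), or control library 1 (0.064), 2 (0.0545) or 3 (0.0565). These folds depend on the pseudocount of 0.5, because single libraries are at 0.

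SCARNA10 had 879, 843 and 863 scaled TPM in siMENA against 1006, 944 and 1069 in control, with no overlap. It fell by 0.22 ± 0.062 on the log2 scale (adjusted p = 0.0144). The call was lost without control library 3 (0.0526), and the log2 fold change was 0.02 after quantile normalisation (adjusted p = 0.811) and -0.12 when TPM was rescaled without small RNAs (adjusted p = 0.125), in a range of 0.00457 to 0.811 over all its alternatives. SCARNA9, which guides modification of U2, had 22.2, 27.8 and 20.8 scaled TPM in siMENA against 35.4, 29.2 and 31.2 in control. It fell by 0.43 ± 0.13 (adjusted p = 0.0175), and the call was lost without siMENA library 1 (0.0562), siMENA library 3 (0.0649) or control library 1 (0.0642).

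SNORA71A, an H/ACA RNA in SNHG17, had 170, 156 and 112 scaled TPM in siMENA against 89.4, 66.4 and 70.7 in control, with no overlap. It rose by 0.94 ± 0.29 (adjusted p = 0.0227), and the call was lost without siMENA library 1 (0.0758) or 2 (0.0647), or control library 2 (0.0703) or 3 (0.0624). SNORA59A and SNORA59B have the same 152 bases at 2 loci and were listed with identical values in every library, so they are 1 measurement. Each had 29.1, 16 and 33.1 scaled TPM in siMENA against 3.95, 17.5 and 9.4 in control and rose by 1.46 ± 0.45 (adjusted p = 0.022), with overlapping libraries. That call was lost without siMENA library 1 (0.0669), siMENA library 3 (0.0748) or control library 1 (0.0517, with a log2 fold change of 0.93). The scaRNA SCARNA17 rose by 0.31 ± 0.11 (adjusted p = 0.0461), and lost its call without siMENA11a library 2 (0.0577), siMENA library 1 (0.137) or 2 (0.118), or control library 1 (0.0638) or 2 (0.153, with a log2 fold change of 0.19). SNORA80, in URB1, had 0, 26.6 and 62.5 scaled TPM in siMENA and was listed at 0 in all siMENA11a and control libraries. Without the filter on low values the calls of SCARNA17 (0.0835), SNORA5A (0.0521) and SNORD3B-2 (0.063) were lost as well. With robust eBayes these 3 were lost (0.0568, 0.0774 and 0.0603), and so were SNORA71A (0.0705) and the SNORA59 entries (0.0698).

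Both knockdowns were set against the same control libraries, so their lists of calls are not independent. SNORA10, SNORA33, SNORA61, SCARNA20 and SNORD3B-2 were called in both. The calls of the first 4 rest on a group listed at 0, and SNORD3B-2 moved in opposite directions.

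Between siMENA11a and siMENA, 10 members were higher in siMENA11a and 2 were lower among those with neither of these groups listed at 0. SNORA61, among the 10, was listed at 0 in all control libraries. In all, the fit called 14 members, 11 higher and 3 lower, of which SNORA50 and SNORA80 rest on a group listed at 0. The 14 called members are 12.3%, beside 58.7% of all genes called (29.5% higher and 29.2% lower). The libraries did not overlap for 9 members, beside 65.1% of genes. In TPM as deposited, where the median of all genes is shifted by -0.20, 6 members were called higher and 5 lower. The count was 22 without siMENA library 1.

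SCARNA2 had 210, 232 and 213 scaled TPM in siMENA11a against 186, 169 and 178 in siMENA, with no overlap, and was higher by 0.30 ± 0.05 on the log2 scale (adjusted p = 0.000457). SCARNA9 had 40.8, 31.1 and 38.2 scaled TPM in siMENA11a against 22.2, 27.8 and 20.8 in siMENA, with no overlap, and was higher by 0.63 ± 0.13 (adjusted p = 0.00193). SCARNA10 was higher by 0.24 ± 0.062 (adjusted p = 0.0082), with 1057, 1066 and 931 scaled TPM in siMENA11a. Of these 3 scaRNAs, SCARNA9 kept its call in TPM as deposited (adjusted p = 0.0127), while SCARNA2 (0.251) and SCARNA10 (0.721) did not. Over all its alternatives the adjusted p of SCARNA9 ranged from 0.0007 to 0.0127, that of SCARNA2 from 0.000202 to 0.251 and that of SCARNA10 from 0.00129 to 0.864.

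SNORA53 had 151, 126 and 106 scaled TPM in siMENA11a against 94.3, 86.3 and 76.1 in siMENA, with no overlap, and was higher by 0.57 ± 0.15 (adjusted p = 0.00919). SNORD17, a box C/D RNA in SNX5, had 127, 163 and 123 scaled TPM in siMENA11a against 110, 95.2 and 89.2 in siMENA, with no overlap. It was higher by 0.48 ± 0.14 (adjusted p = 0.0129). SNORA18 was higher with a log2 fold change of 4.69 ± 1.25 (adjusted p = 0.00938), with 55.9, 89.1 and 16.4 scaled TPM in siMENA11a and 2 of 3 siMENA libraries at 0. These 3 kept their call whichever library was left out, but SNORD17 lost it in TPM as deposited (0.086). For SNORA18, leaving out siMENA library 3 puts siMENA wholly at 0, and keeping the call there shows nothing.

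SNORA73A was higher by 0.39 ± 0.13 (adjusted p = 0.0225), and lost its call without siMENA11a library 1 (0.0825) or siMENA library 3 (0.0846), in TPM as deposited (0.167) and after quantile normalisation (0.0708). SNORA74A was higher by 0.55 ± 0.19 (adjusted p = 0.0328), and lost it without siMENA11a library 1 (0.113) or siMENA library 2 (0.11, with a log2 fold change of 0.35), and in TPM as deposited (0.118). SNORA61 was higher by 0.55 ± 0.16 (adjusted p = 0.0152), which is 2, 2 and 2 steps against 1, 2 and 1. It lost its call without siMENA library 1 (0.0583) or 3 (0.0566), and in TPM as deposited (0.0819). Its control libraries, all at 0, add no spread to the shared estimate behind this SE and p, so both may be too small. SNORA4 (adjusted p = 0.0224) lost its call without siMENA11a library 2 (0.0694), or siMENA library 1 (0.0829) or 3 (0.0826). With robust eBayes, SNORA4 (0.0716) and SNORA74A (0.0813) lost their calls, the last also without the filter on low values (0.0628). The lower members were SNORD3B-2 and SCARNA9L. SCARNA9L had 9.31, 9.72 and 8.29 scaled TPM in siMENA11a against 15.7, 16.2 and 10.4 in siMENA (log2 fold change -0.58 ± 0.175, adjusted p = 0.0168). It lost its call without siMENA11a library 3 (0.0574), or siMENA library 1 (0.0615) or 2 (0.0629).

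**Figure D4:**
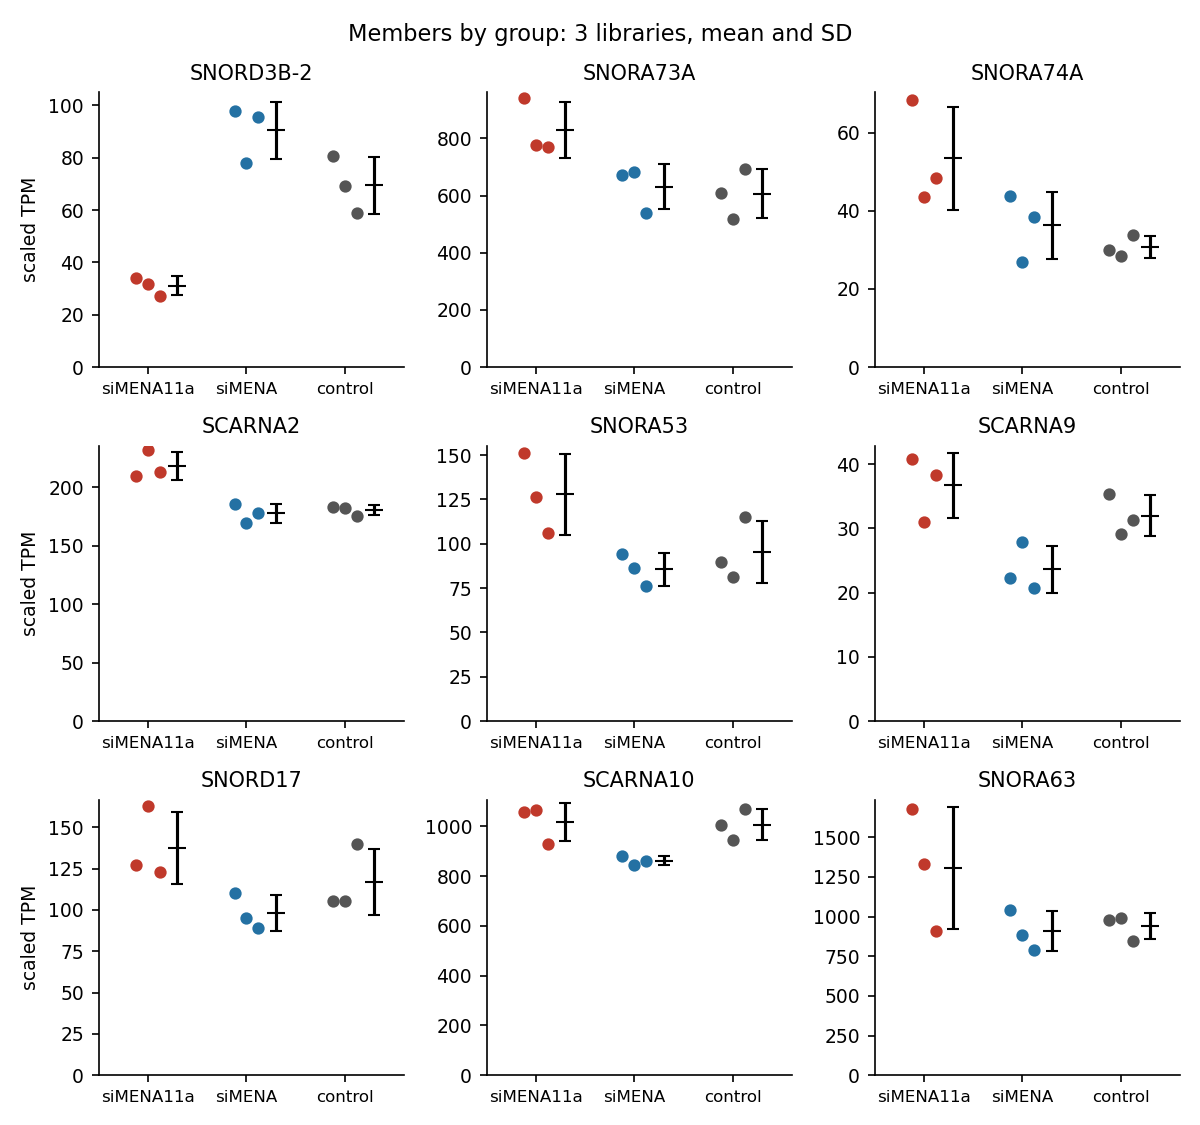
Scaled TPM of 9 members in siMENA11a, siMENA and control, 1 point per library, with the mean and SD (n = 3) as a bar beside each group. SNORD3B-2 is lowest in siMENA11a, where its 3 libraries lie between 27 and 34.2, while SNORA73A, SNORA74A and SCARNA2 are highest there.

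Of the 6 tested members linked to processing of the rRNA precursor, the U3 copy SNORD3B-2 and SNORA73A were called in at least 1 comparison. SNORD3A, SNORD3C, SNORD22 and SNORD118 were called in none. Of these 6, the F test also called only SNORD3B-2 and SNORA73A, beside 73.2% of all genes. SNORD3B-2 had 34.2, 31.8 and 27 scaled TPM in siMENA11a, 97.8, 78 and 95.7 in siMENA, and 80.6, 69.1 and 58.8 in control. Its siMENA11a libraries lay below all 6 others, while siMENA and control overlapped. It fell in siMENA11a by 1.15 ± 0.13 on the log2 scale against control (adjusted p = 5.95e-05) and by 1.53 ± 0.13 against siMENA (adjusted p = 6.26e-06), and both calls were kept whichever library was left out. It rose in siMENA against control by 0.38 ± 0.13 (adjusted p = 0.0326), a call that was lost without siMENA library 1 (0.106) or 3 (0.0971), or control library 2 (0.0715) or 3 (0.112).

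SNORD3A, a near-identical copy, had a log2 fold change of -0.31 ± 0.21 in siMENA11a against control (adjusted p = 0.226) and -0.31 ± 0.21 in siMENA against control (adjusted p = 0.242). SNORD3C had 49.9, 13 and 30.6 scaled TPM in siMENA11a, 21, 29.5 and 31.4 in siMENA, and 30.6, 27.7 and 22.3 in control, with a log2 fold change of 0.03 ± 0.39 for siMENA11a (adjusted p = 0.96). SNORD3B-2 averaged 31 ± 3.63 scaled TPM in siMENA11a and 69.5 ± 10.9 in control (SD, n = 3 each), beside 9639 ± 2173 in siMENA11a and 12024 ± 3007 in control for SNORD3A. How reads were divided among copies that share 216 of 217 bases is not given in the sources used here, and its part in the fall of SNORD3B-2 was not tested. SNORD22, a box C/D RNA in SNHG1, had 187, 205 and 142 scaled TPM in siMENA11a, 151, 71.6 and 85.2 in siMENA, and 149, 33.5 and 246 in control. SNORD118, the U8 RNA of large-subunit rRNA processing, was above 0 in 3 libraries, 1 in each group, up to 25.3 scaled TPM.

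The members lie inside host genes whose own RNA was also measured. A host in the table was found for 105 members, with 79 distinct hosts, of which 58 members lay in introns only and 47 overlapped an exon of some annotated transcript. For siMENA11a against control, 40 of 79 hosts (50.6%) were called, near the 55.6% of all genes, and in 6 pairs both the member and its host were called, 1 in the same and 5 in opposite directions. For siMENA against control, 37 hosts (46.8%) were called, near the 49.4% of all genes, with 6 such pairs, 4 in the same and 2 in opposite directions. For siMENA11a against siMENA, 42 hosts (53.2%) were called, beside 58.7% of all genes, with 4 such pairs, 1 in the same and 3 in opposite directions. These pairs include members with a group listed at 0. Among the opposite pairs of siMENA11a these were SCARNA20 and SNORA50 against control, and SNORA50 against siMENA. Among the same-direction pairs they were SNORA10 and SNORA80, in siMENA against control. There SNORA59B counts as same-direction with SLC47A1, while VPS13D, host of its twin SNORA59A, was not called.

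SCARNA13 rose by 0.21 in siMENA11a while its host SNHG10 fell by 0.77 ± 0.076 on the log2 scale (adjusted p = 2.72e-05). SNORA74A rose by 0.76 while its host SNHG4 fell by 0.42 ± 0.14 (adjusted p = 0.0272), a host call lost when TPM was rescaled without small RNAs (0.0712) and without siMENA11a library 1 (0.0542) or 3 (0.0955) or control library 2 (0.0983). SCARNA22 fell by 0.97, with 2, 3 and 3 steps in siMENA11a against 7, 3 and 3 in control. Its host WHSC1, a histone methyltransferase, fell by 0.42 ± 0.034 (adjusted p = 7.27e-06). EIF4A2, an RNA helicase of translation that hosts SNORA63, SNORA81 and SNORA4, averaged 121 ± 3.62 scaled TPM in siMENA11a and 54.9 ± 1.63 in control (SD, n = 3 each) and rose by 1.14 ± 0.034 (adjusted p = 2.91e-08). Its member SNORA63 had 1676, 1330 and 906 scaled TPM in siMENA11a against 977, 994 and 848 in control, which overlap (log2 fold change 0.43 ± 0.19, adjusted p = 0.0846). EIF4A1, its relative that hosts SNORA48, SNORA67 and SNORD10, fell by 0.59 ± 0.037 (adjusted p = 1.53e-06). The log2 fold changes of its members were 0.39 for SNORA48, 0.96 for SNORA67 and 0.53 for SNORD10, and none was called. SNHG3, host of SNORA73A, had a log2 fold change of -0.13 (adjusted p = 0.0864). Reads of an unspliced or overlapping host can fall on a member, and that share was not tested.

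**Figure D5:**
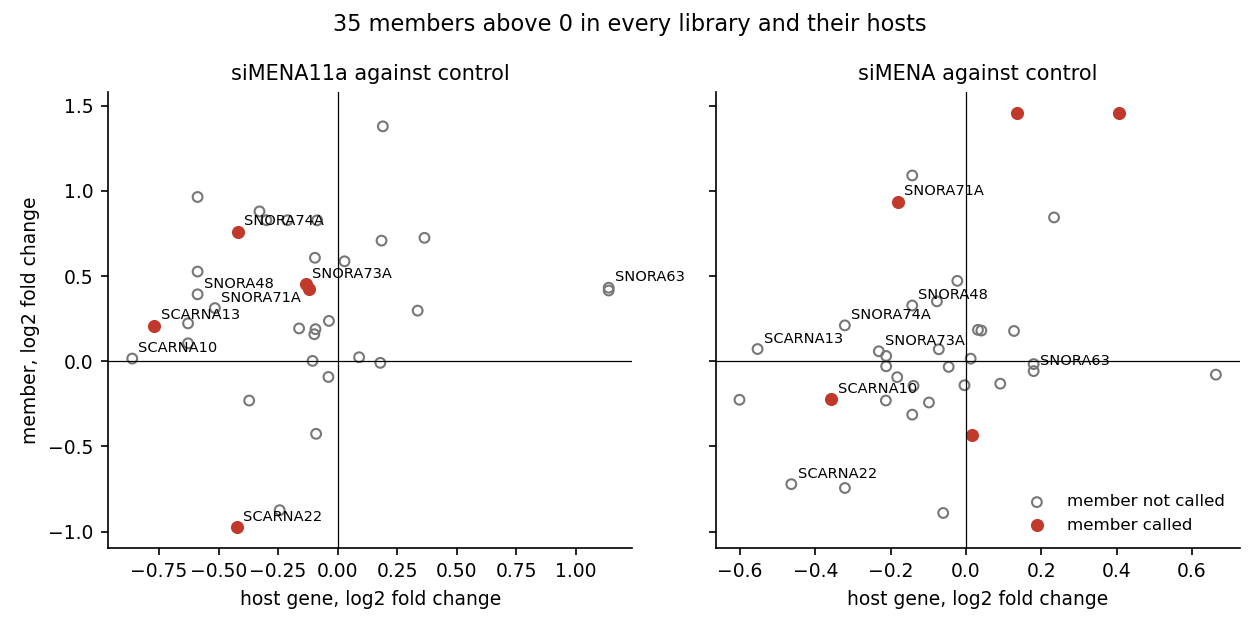
Log2 fold change of 35 members above 0 in every library (vertical) against that of the host gene (horizontal), for siMENA11a against control and siMENA against control. Filled points are called members. SNORA63 lies far to the right because EIF4A2 rose by 1.14 in siMENA11a.

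Many host genes carried entries that were listed at 0. Of 154 hosts in the table with an entry inside, 74 had every such entry at 0 in all libraries. SNHG5 and ZFAS1, non-coding hosts of box C/D RNAs, rose in siMENA11a against control by 0.67 ± 0.052 and 0.64 ± 0.063 on the log2 scale (adjusted p = 5.7e-06 and 2.68e-05), with 1 and 3 entries inside, all listed at 0. The non-coding host GAS5 rose by 0.88 ± 0.058 in siMENA11a (adjusted p = 2.03e-06) and by 0.44 ± 0.058 in siMENA (adjusted p = 0.000201), both against control. SNHG16, with 3 entries inside, all listed at 0, fell by 0.75 ± 0.041 in siMENA11a against control (adjusted p = 7.34e-07). It fell by 0.23 ± 0.041 in siMENA against control (adjusted p = 0.00149), a call lost under quantile normalisation (0.0851). Of 21 tested genes on a list of non-coding hosts, 12 (57.1%) rose and 4 (19.0%) fell in siMENA11a against control, beside 27.9% and 27.7% of all genes. The median log2 fold change was 0.27, beside 0.01 for all genes. That list holds the protein-coding TMEM107 and the member SCARNA2, which is among the 12 rises and whose own value is this median. In TPM as deposited, 8 rose and 5 fell. In siMENA 4 (19.0%) rose and 6 (28.6%) fell against control, beside 23.7% and 25.8% of all genes, with a median of -0.00. This order turned under every other scaling. In TPM as deposited, and when TPM was rescaled without small RNAs, 8 rose and 4 fell. After quantile normalisation 6 rose and 3 fell. For 58 protein-coding hosts the direction depended on the scaling. In siMENA11a 7 (12.1%) rose and 26 (44.8%) fell against control, beside 27.9% and 27.7% of all genes. When TPM was rescaled without small RNAs, 16 rose and 15 fell. In siMENA 8 (13.8%) rose and 22 (37.9%) fell against control, beside 23.7% and 25.8% of all genes, but 16 rose and 6 fell in TPM as deposited.

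The RNAs of several proteins of the box C/D and H/ACA particles were lower in siMENA11a. Here and below, values given under the name of a protein are those of its RNA, and proteins were not measured. Of 4 tested core proteins of box C/D particles, 3 (75%) fell against control, beside 27.7% of all genes. The median log2 fold change of the 4 was -0.22, and 2 to 4 fell under the other scalings. NOP56 fell by 0.69 ± 0.049 on the log2 scale (adjusted p = 3.15e-06), with 22.6 ± 1.67 scaled TPM in siMENA11a and 36.6 ± 0.32 in control (SD, n = 3 each). The methyltransferase FBL fell by 0.32 ± 0.046 (adjusted p = 0.000292). NOP58 fell by 0.12 ± 0.046 (adjusted p = 0.047), a call lost without siMENA11a library 1 (0.12) or 3 (0.134), siMENA library 1 (0.0577), or control library 1 (0.163) or 3 (0.0762), under quantile normalisation (0.24), and when TPM was rescaled without small RNAs (0.514, with a log2 fold change of -0.04). In siMENA 0 of the 4 were called against control, beside 49.4% of all genes. The smallest adjusted p was 0.522 by limma, while 3 were called higher after quantile normalisation.

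Of the 4 core proteins of box H/ACA particles, 3 (75%) fell and 1 (25%) rose in siMENA11a against control, with a median of -0.20. Of all genes, 27.7% fell and 27.9% rose. DKC1, the pseudouridine synthase, fell by 0.32 ± 0.044 (adjusted p = 0.000213) and NHP2 by 0.19 ± 0.034 (adjusted p = 0.00121). GAR1 fell by 0.22 ± 0.063 (adjusted p = 0.0145), a call lost without siMENA11a library 3 (0.0573) or control library 1 (0.0512) or 3 (0.0525), and when TPM was rescaled without small RNAs (0.0734, with a log2 fold change of -0.14). In that scaling 2 of the 4 fell and 1 rose. NOP10 rose by 0.17 ± 0.041 (adjusted p = 0.00521), and by 0.04 in TPM as deposited (adjusted p = 0.486). In siMENA, 2 (50%) fell against control and 0 rose, beside 25.8% and 23.7% of all genes. Under each other scaling none fell and 1 or 2 rose, so no direction holds there.

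Of 49 tested proteins of rRNA synthesis and processing, 29 (59.2%) fell and 3 (6.12%) rose in siMENA11a against control, beside 27.7% and 27.9% of all genes. In siMENA 5 (10.2%) fell and 20 (40.8%) rose against control, beside 25.8% and 23.7% of all genes. The median log2 fold change was -0.19 in siMENA11a and 0.07 in siMENA. Against siMENA, 35 (71.4%) were lower and 4 (8.16%) higher in siMENA11a, beside 29.2% and 29.5% of all genes, with a median of -0.25. Under the other scalings, from 20 to 34 of them fell in siMENA11a and from 23 to 31 rose in siMENA, both against control. Nucleolin (NCL), an abundant nucleolar protein, had 89.2 ± 2.07 scaled TPM in siMENA11a, 170 ± 8.08 in siMENA and 168 ± 4.36 in control (SD, n = 3 each), and fell by 0.91 ± 0.039 in siMENA11a against control (adjusted p = 1.85e-07). EMG1, a methyltransferase of small-subunit rRNA, fell by 1.35 ± 0.079 (adjusted p = 1.05e-06). PNO1, a factor of late small-subunit maturation, fell by 1.00 ± 0.069 (adjusted p = 2.66e-06). NOB1, the nuclease of that step, fell by 0.72 ± 0.044 (adjusted p = 1.38e-06). In siMENA against control, WDR12, of large-subunit maturation, rose by 0.36 ± 0.033 (adjusted p = 2.47e-05), while the helicase DDX18 fell by 0.37 ± 0.033 (adjusted p = 1.66e-05).

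Of 11 tested factors that assemble the particles, 6 fell and 1 rose in siMENA11a, with a median of -0.15, and 3 fell and 3 rose in siMENA, with a median of -0.01, against control. The 6 that fell are 54.5%, beside 27.7% of all genes lower, while the 27.3% each way in siMENA is near the 23.7% of all genes higher and 25.8% lower. From 2 to 8 fell in siMENA11a under the other scalings, 3 without siMENA11a library 2 or control library 1, and 4 without control library 3. RUVBL2, an ATPase of the assembly machinery, fell by 0.63 ± 0.041 in siMENA11a (adjusted p = 1.84e-06) and by 0.58 ± 0.041 in siMENA (adjusted p = 4.19e-06). Of 18 tested genes on a list of Cajal body and scaRNA proteins, 8 fell and 2 rose in siMENA11a, with a median of -0.03. In siMENA 5 fell and 4 rose, with a median of -0.02. The list also holds the nucleolar TCOF1 and the DNA repair enzyme TDP1, so it is not purely of Cajal body proteins. Both are among its falls in siMENA11a, TDP1 by 0.93 ± 0.043 (adjusted p = 2.73e-07). The 10 called in siMENA11a (55.6%) and the 9 of 18 called in siMENA are near the background of 55.6% and 49.4% of all genes. When TPM was rescaled without small RNAs, 7 fell and 6 rose in siMENA11a and 2 fell and 7 rose in siMENA. TCOF1, the nucleolar protein treacle, fell by 0.72 ± 0.039 in siMENA11a (adjusted p = 6.93e-07) and rose by 0.23 ± 0.039 in siMENA (adjusted p = 0.000958). Of 23 tested factors that trim or degrade small RNAs, 6 fell and 7 rose in siMENA11a, with a median of 0.01, and 3 fell and 9 rose in siMENA, with a median of 0.09. The 26.1% that fell and 30.4% that rose in siMENA11a are near the 27.7% and 27.9% of all genes. In siMENA 13.0% fell and 39.1% rose, beside 25.8% and 23.7% of all genes. In TPM as deposited, 6 fell and 2 rose in siMENA11a, so its direction depended on the scaling. PARN, which trims the 3' end of H/ACA RNAs, rose by 0.30 ± 0.054 in siMENA11a (adjusted p = 0.00103) and by 0.34 ± 0.054 in siMENA (adjusted p = 0.000652). DBR1, which opens intron lariats, fell by 0.41 ± 0.067 in siMENA11a (adjusted p = 0.000641).

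Of 19 tested small structured RNAs of other kinds, 3 (15.8%) rose and 1 (5.26%) fell in siMENA11a against control, beside 27.9% and 27.7% of all genes. In siMENA 1 rose and 1 fell against control (5.26% each), beside 23.7% and 25.8% of all genes. The median was 0.29 in siMENA11a and -0.06 in siMENA. The rises in siMENA11a numbered 1 in TPM as deposited and 7 when TPM was rescaled without small RNAs. They numbered 0 without siMENA11a library 2 or control library 1, 1 without siMENA11a library 1 or control library 2, and 5 without siMENA11a library 3, siMENA library 2 or control library 3. TERC, the telomerase RNA, ends in a box H/ACA domain. It had 245, 249 and 236 scaled TPM in siMENA11a, 285, 291 and 267 in siMENA, and 210, 203 and 232 in control, and neither knockdown overlapped control. It rose by 0.39 ± 0.053 in siMENA against control (adjusted p = 0.00025). In siMENA11a it rose by 0.18 ± 0.053 (adjusted p = 0.015), and by 0.05 in TPM as deposited (adjusted p = 0.434). That call was also lost without siMENA11a library 2 (0.0525) or control library 1 (0.0514) or 2 (0.0605). RNU2-2P, a U2 copy, fell by 0.52 ± 0.088 in siMENA against control (adjusted p = 0.001).

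For the 3 members with the strongest F test, likeness to other members was measured by Pearson's r over log2 values of the 9 libraries, as a description. SNORA61 was most like SNORA10 (r = 0.992), then SNORA33 (0.77) and SCARNA17 (0.715). SNORA10 was most like SNORA61, then SCARNA17 (0.73) and SNORA33 (0.727). For SNORD3B-2 the highest were SCARNA9L (0.583), SNORA31 (0.565) and SNORA6 (0.5). Values of 1 library share its depth and scaling, and the values of SNORA61, SNORA10 and SNORA33 share the listing at 0 in all control libraries.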

How the data were processed

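RNA of 9 libraries (3 groups of 3) was measured by ribosome-depleted, stranded, paired-end total RNA sequencing, per the labels' protocols. The authors deposited 1 table of TPM per gene. Its name points to RSEM, while kallisto and GRCh37 stand without a role or version in the submitters' processing notes. Which of these made the values, with what settings, and whether strand was used, is not stated. TPM keeps no depth, so depth is unknown and counting error cannot be stated. Every value column was used.

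Each library's TPM was divided by a median-of-ratios size factor (12341 genes). A limma 3.58.1 fit (R 4.3.3; 3 group means, eBayes with a mean trend) used log2 of scaled TPM plus a pseudocount of 0.5, over 13498 genes averaging 0.5 or more. Fold changes on this scale understate the change of low genes above 0 in every library. Those of members with libraries at 0 depend on the pseudocount and can be large for a few steps. In siMENA against control, SNORA18 had -4.74 with 0.5 and -1.38 with a pseudocount of 20, and SNORA4 -4.23 and -1.08. Benjamini-Hochberg adjustment ran over all tested genes, with a threshold of 0.05, for 3 comparisons and an F test. The fit was tested on simulated data drawn from normal distributions, without whole steps of signal. That test does not cover members that take only a few steps. Named were the 6 highest members of each class, the 6 largest called non-overlapping rises and falls of each comparison, the rRNA-processing snoRNAs, up to 4 genes of each pathway list by adjusted p, hosts of these, and members most alike in pattern. All other called members were added after their values were seen.

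Lengths, hosts and sequences came from GENCODE 29 (GRCh38), by symbol or, for 9 members, by a RefSeq synonym. A host is the smallest gene in the table that contains the RNA on the same strand. Same-numbered libraries did not deviate together, so no block was used. Alternatives were other scalings, pseudocounts and filters, robust eBayes, a block and leaving out each library, and a pseudocount of 20 was added after seeing the data. Members and lists were chosen with earlier results of these data known.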

Additional observations from a re-analysis of the deposited data

Results flagged for a closer look

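SNORD3B-2, a copy of the U3 RNA, had effects of opposite direction in the knockdowns. Its log2 fold change against control was -1.15 in siMENA11a and 0.38 in siMENA. The difference was tested directly as siMENA11a against siMENA and was -1.53 ± 0.13 (SE; limma, adjusted p = 6.26e-06), with all 3 siMENA11a libraries below all 3 siMENA libraries. The alternatives of this difference gave values from -1.75 to -1.11. SNORD3A, which shares 216 of its 217 bases, had log2 fold changes of -0.31 and -0.31 in the same comparisons.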

How the results depend on the processing

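Depth is unknown, most short members take values in whole steps, and each group has 3 libraries. Of the called members, 6 of 12 for siMENA11a against control, 4 of 15 for siMENA against control and 4 of 14 for siMENA11a against siMENA kept their call under every alternative planned. Of these, 3, 2 and 0 rest on a group listed at 0 in all its libraries, where keeping the call shows nothing. SNORA18 and SNORA4, also kept for siMENA against control, have signal in 1 siMENA library each, as has SNORA18, kept for siMENA11a against siMENA. Leaving that library out puts siMENA wholly at 0. With 1 library left out, 8 to 18 members were called for siMENA11a against control (6 to 14 higher, 1 to 4 lower), 7 to 16 for siMENA against control (3 to 10 higher, 3 to 6 lower), 11 to 22 for siMENA11a against siMENA (8 to 20 higher, 1 to 4 lower), and 14 to 25 by the F test. For siMENA against control, 9 members were called without a filter (5 higher) and 6 with robust eBayes (2 higher), and by the F test 12 and 11. For siMENA11a against control, 1 member was called lower without a filter and 1 with robust eBayes. In TPM as deposited, siMENA11a had 6 members called lower than control and 5 called lower than siMENA. With the replicate number as a block, 18 members were called for siMENA11a against control (6 lower), 15 for siMENA against control, 19 for siMENA11a against siMENA (5 lower) and 22 by the F test, and SCARNA17 was not called for siMENA against control (adjusted p = 0.0607). Those libraries share only a number: deviations of same-numbered libraries correlated at -0.0651 to 0.0584 over all genes. SCARNA10 had a log2 fold change of -0.12 for siMENA11a against control in TPM as deposited (adjusted p = 0.0495). After quantile normalisation, siMENA against control gave 0.018 for SCARNA10 (adjusted p = 0.811) and 0.16 for SCARNA2 (adjusted p = 0.0242). The cause was not tested. With a pseudocount of 20, chosen after seeing the data, 12 of 12, 14 of 15 and 13 of 14 of the calls were kept, those with a group listed at 0 included.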
